A study of Mus musculus with 8 samples.

Results

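The cadherin genes of sorted mouse bile duct cells are described here: the classical cadherins, the desmosomal cadherins (desmogleins and desmocollins) and the protocadherins. They were taken by gene symbol, as every symbol that begins with Cdh, Pcdh, Dsg or Dsc followed by a number or, for the clustered protocadherins, by an array letter and a number. This gave 102 of the 20377 gene symbols in the tables: 24 cadherins, 6 desmogleins, 3 desmocollins, 12 non-clustered protocadherins, and 13 alpha, 22 beta and 22 gamma protocadherins of the clustered arrays. Of these, 69 lie on chromosome 18. Each symbol is represented by its transcript with the most reads. RNA sequencing compared wild-type C57BL/6 liver duct cells of high surface ST14 (ST14high) with those of low surface ST14 (ST14low). ST14, also called matriptase, is a serine protease anchored in the membrane of epithelial cells. Both populations came from non-parenchymal liver cells, a preparation meant to leave out hepatocytes, though hepatocyte markers were read in both. Both were sorted as MIC1-1C3 positive, CD26 negative and non-blood. Each had 4 libraries, and the labels give no age and do not say whether the 4 came from separate animals, so the spread behind each p-value may be technical only.

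The ST14high libraries held 17418202 to 42769988 counts and the ST14low libraries 6398307 to 31011678. Duct cell markers were present in both: the 10 genes of a biliary epithelium list, among them Epcam, Krt19 and Sox9, summed to 12729 to 22806 CPM, counts scaled to library size, in ST14high and 17425 to 24170.0 CPM in ST14low, with a median log2 fold change of -0.04. The library of ST14high replicate 1 was unlike the rest. It lay at -107 on the first principal component, which held 34.3% of the variance, where the other 7 libraries lay between -11.5 and 55.5. Pancreatic acinar genes, 13 in all, summed to 9717 CPM in that library, 1405 CPM in ST14high replicate 2, at most 11.9 CPM in the other ST14high libraries, and 4.93 to 109.7 CPM in ST14low. Values without ST14high replicate 1 are therefore given wherever they move a result.

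Cadherins are membrane proteins that bind cells to each other through calcium-dependent repeats outside the cell. Classical cadherins sit in adherens junctions and hold the actin cytoskeleton through catenins. Type I members are led by Cdh1 (E-cadherin), the adherens junction cadherin of epithelia, and Cdh2 (N-cadherin), which is found in neurons, mesenchyme and hepatocytes. Type II members include Cdh5 (VE-cadherin) of endothelium, Cdh6 (K-cadherin), known from kidney tubules, and Cdh11 (OB-cadherin), known from bone-forming and other mesenchymal cells. Desmogleins and desmocollins build desmosomes and hold keratin filaments through desmoplakin. Clustered protocadherins are best known from neurons, where promoter choice gives each cell its own set of isoforms.

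Promoter sequences are shown for Cdh6 and Pcdh7. In both the populations did not overlap, and both were in the set of promoters used here, taken from the RefSeq promoter table (build GRCm38.p6). The set held 22 of the 102 members, and absence from it does not mean that the table lacks an entry. Each sequence runs 5′ to 3′ from 250 bases before to 50 bases after the gene's start. Capitals mark E-boxes, written CANNTG, the motif that basic helix-loop-helix factors bind. The form CAGGTG, or CACCTG on the other strand, is also the one bound by the Snail and Zeb repressors known to act on Cdh1. Cdh6 is read from chr15:13173626-13173925 on the minus strand and Pcdh7 from chr5:57717831-57718130 on the plus strand.
Cdh6: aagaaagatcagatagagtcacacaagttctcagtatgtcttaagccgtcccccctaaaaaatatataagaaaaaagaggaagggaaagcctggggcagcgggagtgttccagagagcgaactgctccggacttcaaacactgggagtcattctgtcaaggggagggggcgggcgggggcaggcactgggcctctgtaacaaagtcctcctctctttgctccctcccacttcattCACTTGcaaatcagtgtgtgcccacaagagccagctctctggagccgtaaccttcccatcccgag
Pcdh7: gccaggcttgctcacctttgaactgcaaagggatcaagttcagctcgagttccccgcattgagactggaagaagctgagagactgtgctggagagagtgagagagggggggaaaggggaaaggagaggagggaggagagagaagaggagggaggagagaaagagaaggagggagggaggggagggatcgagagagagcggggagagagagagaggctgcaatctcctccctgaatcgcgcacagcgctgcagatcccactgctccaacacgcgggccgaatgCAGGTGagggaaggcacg
The window of Cdh6 held 1 E-box, CACTTG, which begins 15 bases before the start. The window of Pcdh7 held 1 E-box, which begins 32 bases after the start and has the letters CAGGTG. Of the 32851 promoters in the set used, 72.3% hold CANNTG on at least 1 strand and 20.2% hold CAGGTG or CACCTG. Neither window held the TEAD factor motif GGAATG or CATTCC, which 14.7% of promoters hold, nor the letters TATAAA or TTTATA, which 13.6% hold. A match is a description of the letters only.

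Few of the members separated the populations. A low-count filter kept 72 of the 102 members for testing and left out 30, of which 4 had no read in any library. In edgeR's quasi-likelihood test adjusted over all genes, 0 of the 72 members passed an adjusted p of 0.05, as did 0 of all 13749 genes tested (0%), and the smallest adjusted p among members was 0.192. At an unadjusted p under 0.05 in edgeR there were 3 members, Cdh11, Pcdh7 and Cdh6, all higher in ST14high. At that level stood 9.56% of all genes, 6.89% higher and 2.68% lower. DESeq2's Wald test gave 71 members an adjusted p and called 2, Cdh11 and Pcdh7, both higher, where it called 1.62% of all genes higher and 1.72% in either direction. Among the 72 tested members, every ST14high library lay above every ST14low library in 4 (Cdh11, Pcdh7, Cdh6 and Pcdhb16), against 4.09% of all genes tested, and below it in 0, against 2.33%. Genes whose populations do not overlap in either direction made up 6.42% of all genes tested. The 72 members hold alpha and gamma rows that repeat the same reads. With 1 row per clustered array 25 members were tested, and in 3 every ST14high library lay above every ST14low library. This also cut the 15 tested beta genes, which have separate rows, to Pcdhb17 and so left out Pcdhb16. DESeq2 then called 2 of 24, both higher. These shares are larger than the 4.09% and 1.62% of all genes, in part because the beta genes were cut to 1 row. They rest on Cdh11, Pcdh7 and Cdh6 alone. The median log2 fold change of ST14high over ST14low was 0.04 over the tested members and 0.00 over all genes. It was 0.08 over the 22 tested members outside the clustered arrays, of which 12 lay above 0 and 10 below.

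**Figure D1:**
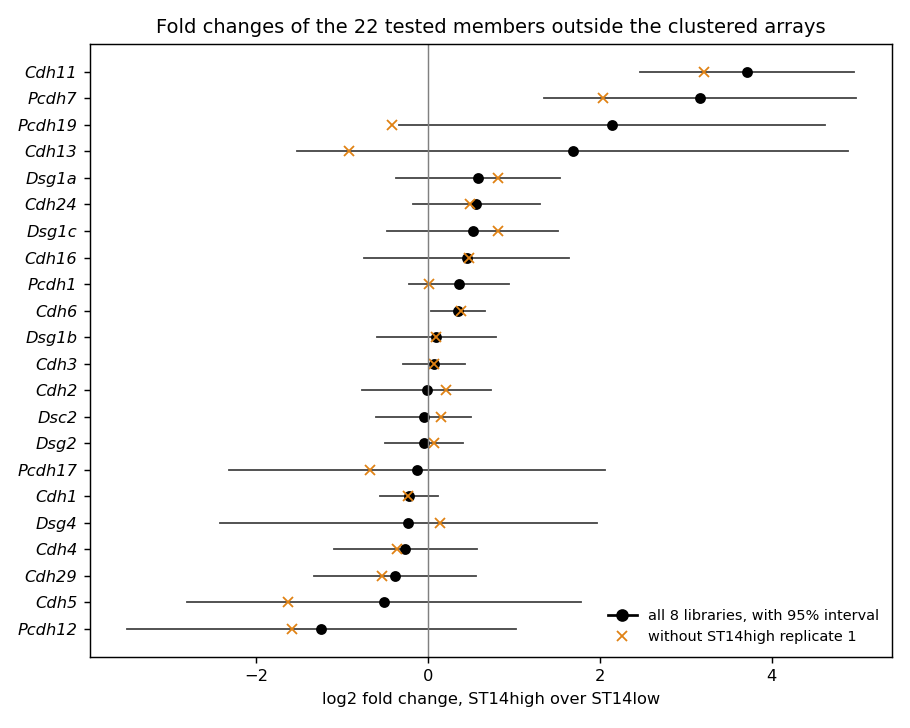
Log2 fold changes (horizontal axis, ST14high over ST14low) of the 22 tested members outside the clustered arrays. Black points with lines are edgeR's values over all 8 libraries with their 95% intervals, and crosses are values without ST14high replicate 1. Cdh11 and Pcdh7 stand to the right of 0 with and without that library. Pcdh19 and Cdh13 stand to the right of 0 only with it.

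Cdh1 was the dominant classical cadherin transcript of both populations. Levels of different genes are compared here in RPKM, the deposited values, which divide reads by transcript length and library size. Cdh1 was at 499.5, 511.7, 593 and 510.9 RPKM in ST14high, against 741, 620.4, 558 and 591 RPKM in ST14low. The populations overlapped, and its log2 fold change was -0.22 (SE 0.15, 95% interval -0.56 to 0.12, edgeR adjusted p = 0.660). Cdh2 was far lower, at 3.9, 8.31, 13.7 and 9.50 RPKM in ST14high, against 7.61, 6.19, 13.1 and 9.48 RPKM in ST14low. Per length, Cdh1 thus exceeded Cdh2 by 43.3 to 128 times in ST14high libraries and by 42.5 to 100.2 times in ST14low libraries, which overlap. The log2 fold change of Cdh2 was -0.02 (SE 0.34, 95% interval -0.77 to 0.74), and it was 0.21 without ST14high replicate 1, the library with the lowest Cdh2, and -0.33 without ST14high replicate 3, the library with the highest. Hepatocytes are a known source of Cdh2. The 8 hepatocyte markers summed to 4844, 8320, 11040 and 12234 CPM in ST14high, against 9831, 14136, 7574 and 9183 CPM in ST14low. The part of hepatocytes in the level of Cdh2 was not tested.

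Cdh3 (P-cadherin), a type I cadherin known from placenta and basal epithelial cells, is the neighbour of Cdh1 on chromosome 8. In the files' mm9 coordinates Cdh3 ends 46459 bases before Cdh1 starts. Cdh3 was at 106, 91.0, 122 and 109 CPM in ST14high, against 117, 116, 76.1 and 97.7 CPM in ST14low. The populations overlapped, with a log2 fold change of 0.07 (SE 0.16, edgeR adjusted p = 0.906). Cdh1 exceeded Cdh3 per length by 15.5 to 18.26 times in ST14high libraries and by 18.34 to 24.5 times in ST14low libraries. This ratio thus lay lower in every ST14high library than in any ST14low library, by a narrow margin, and was not tested. The remaining tested type I member, Cdh4 (R-cadherin of the retina), was low at 3.17 to 4.41 CPM in ST14high, against 2.97 to 7.06 CPM in ST14low. It was chosen, like the other members averaging under 5 CPM that are named below, after its values were seen.

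**Figure D2:**
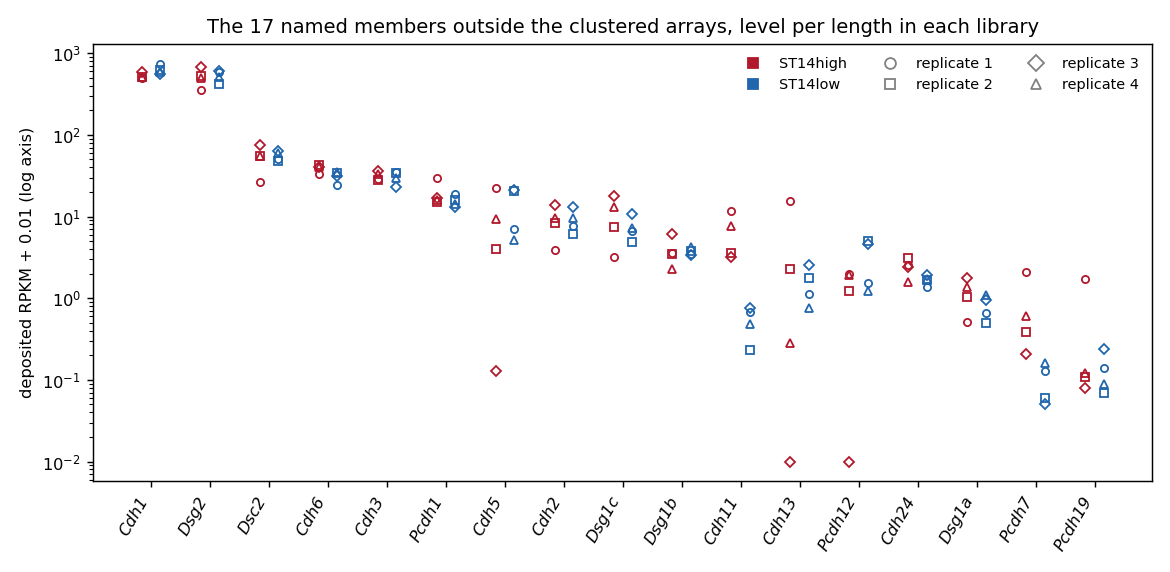
Deposited RPKM (log axis, with 0.01 added) of 17 members outside the clustered arrays in each library, in order of mean RPKM. ST14high libraries are red and stand left of the blue ST14low libraries, and the symbol gives the replicate. Cdh1 and Dsg2 lie highest, Cdh11 and Pcdh7 show all red symbols above all blue ones, and Cdh5, Cdh13 and Pcdh12 have their lowest symbol in ST14high replicate 3.

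The type II cadherins held the member with the greatest separation. Cdh11, on chromosome 8 (105156894 to 105309011 in the files' mm9 coordinates), was at 47.7, 12.8, 11.9 and 28.1 CPM in ST14high, against 2.47, 0.82, 2.77 and 1.75 CPM in ST14low. Each ST14high library lay above each ST14low library, and ST14high replicate 1 was highest. Its log2 fold change was 3.72 (SE 0.56, 95% interval 2.47 to 4.96), with an edgeR adjusted p of 0.192 and a DESeq2 adjusted p of 9.56e-09. Without ST14high replicate 1 it was 3.21 (edgeR adjusted p = 0.0583, DESeq2 adjusted p = 3.23e-08), where DESeq2 called 2.04% of all genes and no other member. Cdh11 remained a scarce transcript next to Cdh1, at 6.52 ± 3.99 RPKM in ST14high and 0.530 ± 0.236 RPKM in ST14low (mean ± SD, n = 4 each).

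Markers of the mesothelium, which lines the surface of the liver, moved with Cdh11, as did the fibroblast and smooth muscle markers given below. All 8 genes of the mesothelial list had reads in every library, and 7 of them, Msln, Upk3b, Upk1b, Wt1, Lrrn4, Krt14 and Bnc1, lay higher in every ST14high library than in any ST14low library. The exception was Gpm6a. Without Gpm6a the list summed to 818, 128, 183 and 195 CPM in ST14high, against 28.4, 23.4, 57.0 and 19.3 CPM in ST14low. Cdh11 equalled 5.84, 10, 6.49 and 14.4% of that sum in ST14high, against 8.68, 3.50, 4.86 and 9.08% in ST14low, which overlap. That overlap depends on leaving out Gpm6a, which was done after its values were seen. With Gpm6a the list summed to 1060, 306, 353 and 411 CPM in ST14high, against 201, 156, 271 and 211 CPM in ST14low. The share of Cdh11 in this full sum did not overlap. Fibroblast and stellate cell markers, 10 genes with reads in every library, summed to 2364, 507, 440.0 and 556 CPM in ST14high, against 283, 149, 273 and 347 CPM in ST14low. In 4 of these 10 the populations did not overlap. Smooth muscle and pericyte markers summed to 980, 331, 307 and 604 CPM in ST14high, against 282, 185, 375 and 331 CPM in ST14low. The sums of these 6 genes overlapped. Among ST14high libraries the fibroblast and smooth muscle sums had the same order as Cdh11, and the mesothelial sums did not. In ST14low none of these sums did. The part of these cells in the level of Cdh11 was not tested, and in bulk RNA fewer cells of a type and less RNA per cell cannot be told apart.

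Cdh6 was the most abundant type II cadherin, at a mean of 39.1 ± 4.22 RPKM in ST14high and 31.2 ± 4.70 RPKM in ST14low. It was at 79.5, 90.2, 88.9 and 86.5 CPM in ST14high, against 53.4, 75.8, 67.3 and 74.2 CPM in ST14low. The ST14high libraries were close to each other and all lay above ST14low, by a small margin at the edge of the groups. The difference was 0.35 on the log2 scale (SE 0.14, 95% interval 0.04 to 0.66) and did not pass adjustment (edgeR adjusted p = 0.481, DESeq2 adjusted p = 0.388). It was 0.39 without ST14high replicate 1. In RPKM the groups overlapped, since ST14high replicate 1 was at 33.1 and ST14low replicates 2 and 4 at 34.05 and 35.0 RPKM. Cdh24, a type II cadherin known to bind catenins, was at 6.30, 6.79, 5.56 and 3.53 CPM in ST14high, against 3.11, 3.84, 4.31 and 3.81 CPM in ST14low. It overlapped, with a log2 fold change of 0.56 (SE 0.33, edgeR adjusted p = 0.607).

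The endothelial cadherins varied more within each population than between them. Cdh5, which closes the junctions of vessel walls, was at 87.5, 13.7, 0.42 and 32.03 CPM in ST14high, against 24.9, 73.1, 74.4 and 17.9 CPM in ST14low. Pcdh12, a protocadherin first described in endothelium, was at 11.7, 6.35, 0.02 and 10.2 CPM in ST14high, against 8.21, 27.6, 24.5 and 6.46 CPM in ST14low. Among ST14low libraries both were highest in replicates 2 and 3, and both were lowest of all libraries in ST14high replicate 3. The log2 fold change of Cdh5 was -0.51 (SE 1.02, edgeR adjusted p = 0.888) and that of Pcdh12 -1.24 (SE 1.01, edgeR adjusted p = 0.705). Without ST14high replicate 1, Cdh5 was at -1.62 and Pcdh12 at -1.59, and without ST14high replicate 3 Cdh5 was at -0.12 and Pcdh12 at -0.84. The 10 endothelial markers summed to 1244, 235, 40.1 and 317 CPM in ST14high, against 272, 732, 1007 and 250.4 CPM in ST14low, and only Emcn in ST14high replicate 3 had no read. The ratio of Cdh5 to the endothelial marker Pecam1, in CPM and not per length, was 1.15, 1.08, 1.06 and 2.36 in ST14high, against 1.82, 1.45, 1.60 and 1.49 in ST14low. The part of endothelial cells in these levels was not tested.

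Cdh13 (T-cadherin) differs from other cadherins in being held in the membrane by a lipid anchor, and is known from vessels and muscle. It was at 30.4, 3.85, 0 and 0.47 CPM in ST14high, against 1.96, 3.22, 4.47 and 1.28 CPM in ST14low. ST14high held both the highest library and the lowest. A log2 fold change of 1.69 (SE 1.44, edgeR adjusted p = 0.714) over all libraries was -0.91 without ST14high replicate 1. Cdh16, known from kidney tubules, and Cdh29 were also low. Cdh16 was at 1.297 to 2.94 CPM in ST14high, against 0.78 to 2.86 CPM in ST14low, and Cdh29 at 1.202 to 2.84 CPM in ST14high, against 2.31 to 3.28 CPM in ST14low.

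**Figure D3:**
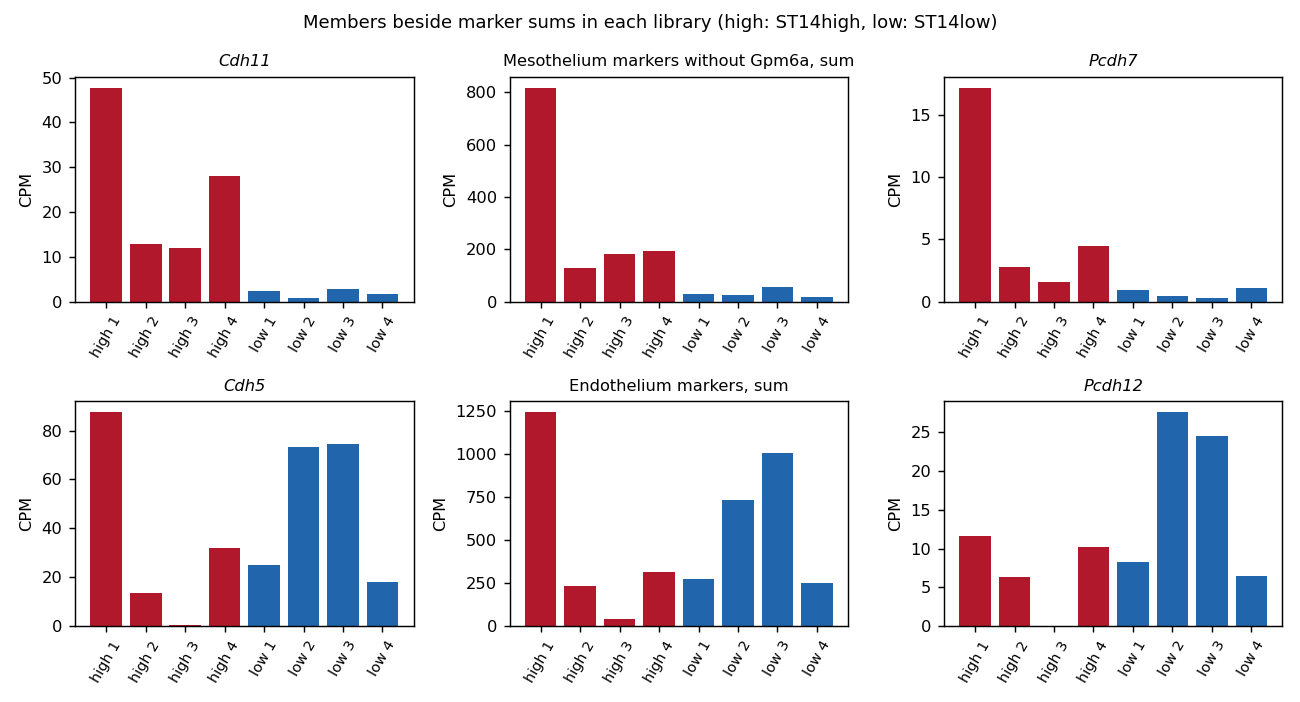
CPM in each library (bars from 0; red, ST14high; blue, ST14low) of Cdh11 and Pcdh7 beside the summed mesothelial markers without Gpm6a, and of Cdh5 and Pcdh12 beside the summed endothelial markers. The mesothelial sum is 818, 128, 183 and 195 CPM in ST14high, against at most 57.0 CPM in ST14low, and Cdh11 is likewise low in all ST14low libraries. The endothelial sum and Cdh5 are both at their lowest in ST14high replicate 3.

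Of the desmosomal cadherins, the duct cells carried chiefly the pair known from simple epithelia, Dsg2 and Dsc2. Dsg2 rivalled Cdh1 per length: it was at 349.8, 530.5, 677 and 490.7 RPKM in ST14high, against 596, 426, 610.5 and 519 RPKM in ST14low. It lay above Cdh1 in ST14high replicates 2 and 3 and in ST14low replicate 3, and below it in the other 5 libraries. The log2 fold change of Dsg2 was -0.05 (SE 0.20, 95% interval -0.50 to 0.40, edgeR adjusted p = 0.954), 0.07 without ST14high replicate 1 and -0.23 without ST14high replicate 3. Dsc2 was at 26.8, 55.5, 75.4 and 54.6 RPKM in ST14high, against 50.7, 47.8, 64.3 and 59.2 RPKM in ST14low. The fold change of Dsc2 was -0.05 on the log2 scale (SE 0.25, 95% interval -0.60 to 0.50), 0.15 without ST14high replicate 1 and -0.29 without ST14high replicate 3. Dsg2 exceeded Dsc2 per length by 8.98 to 13.0 times in ST14high libraries and by 8.76 to 11.8 times in ST14low libraries.

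The desmogleins of skin were present at low levels. Mice carry Dsg1, the desmoglein of the upper epidermis, as the near-identical copies Dsg1a, Dsg1b and Dsg1c, so that their separate counts are uncertain. Dsg1c was at 8.38, 17.6, 43.3 and 30.9 CPM in ST14high, against 15.9, 11.9, 25.7 and 17.01 CPM in ST14low. Dsg1b was at 11.3, 9.41, 17.8 and 6.25 CPM in ST14high, against 9.74, 11.05, 9.40 and 11.6 CPM in ST14low. Dsg1a was at 2.77, 4.96, 8.96 and 6.73 CPM in ST14high, against 3.28, 2.51, 4.62 and 5.31 CPM in ST14low. All 3 copies were highest in ST14high replicate 3 and all overlapped, with log2 fold changes of 0.52 (SE 0.44) for Dsg1c, 0.10 (SE 0.31) for Dsg1b and 0.58 (SE 0.43) for Dsg1a. Dsg1a and Dsg1c were lowest of their population in ST14high replicate 1, and without it both stood at 0.81. Without ST14high replicate 3 the values were 0.11 for Dsg1c, -0.24 for Dsg1b and 0.29 for Dsg1a. Dsg4, of hair follicles, averaged 0.387 CPM in ST14high, against 0.465 CPM in ST14low. Dsc1, Dsc3 and Dsg3, of stratified epithelia, were under the filter with 24, 50 and 95 reads over the 8 libraries. Dsc3 had 3, 7, 0 and 0 reads in ST14high, against 8, 10, 4 and 18 reads in ST14low. In CPM every ST14high library lay below every ST14low library. The nearest, ST14high replicate 2 at 0.278 CPM and ST14low replicate 1 at 0.340 CPM, rest on 7 and 8 reads. These are too few to judge overlap, and Dsc3 was not tested.

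Among the non-clustered protocadherins, Pcdh7 separated the populations and Pcdh1 was the most abundant. Pcdh7, known from the nervous system, was at 17.1, 2.78, 1.56 and 4.47 CPM in ST14high, against 0.89, 0.41, 0.31 and 1.12 CPM in ST14low. Its counts were low, with 559 reads in ST14high and 67 in ST14low. Every ST14high library lay above every ST14low library, and ST14high replicate 1 was far above the rest. The log2 fold change was 3.17 (SE 0.81, 95% interval 1.35 to 4.98, edgeR adjusted p = 0.263, DESeq2 adjusted p = 0.00576). Without ST14high replicate 1 it was 2.03, and DESeq2's adjusted p of 0.116 no longer passed. The mesothelial, fibroblast and smooth muscle marker sums given for Cdh11 also moved with Pcdh7, and their part was not tested.

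Pcdh1, known from airway epithelium, was at 122, 55.2, 64.1 and 58.2 CPM in ST14high, against 70.6, 61.5, 49.1 and 52.2 CPM in ST14low. Apart from ST14high replicate 1 the libraries were alike. The log2 fold change of 0.36 (SE 0.26, edgeR adjusted p = 0.675) became 0.02 without that library. Pcdh19, a protocadherin of brain encoded on the X chromosome, was at 18.6, 0.95, 0.71 and 1.04 CPM in ST14high, against 1.28, 0.61, 2.31 and 0.75 CPM in ST14low. Again 1 library held the difference: the log2 fold change of 2.14 (SE 1.11, edgeR adjusted p = 0.570) became -0.41 without ST14high replicate 1. Pcdh17, also of brain, was at 0.14 to 6.56 CPM in ST14high, against 1.32 to 9.09 CPM in ST14low. Summed acinar markers were highest in the same library, ST14high replicate 1, as were fibroblast, mesothelial and endothelial markers; their part in Pcdh1 and Pcdh19 was not tested.

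The clustered protocadherins lie in 3 arrays next to each other on chromosome 18, which the files place between 37089938 and 38001526 in mm9. In the alpha and gamma arrays each isoform joins its own first exon to shared last exons, whereas each beta gene is a single row of its own. All 22 gamma and all 13 alpha rows overlapped another row of the array in the files, while 0 of the 22 beta rows did. Reads of the shared exons are counted again for every isoform, so the gamma rows repeat 1 measurement. In 7 of the 8 libraries all 22 gamma rows had counts within 1.3 times of the lowest row, and in ST14high replicate 1, 21 did. In ST14high replicate 3, for example, the lowest gamma row had 4327 reads, the median 4445 and the highest 5001. Gamma means lay between 118 and 148 CPM in ST14high, against between 120.1 and 144 CPM in ST14low. Their log2 fold changes ran from -0.06 to 0.04, and none had an unadjusted p under 0.05 in edgeR.

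Reads above the lowest gamma row are those that can differ between isoforms. Pcdhgc3, a C-type gamma isoform that is known to be widely expressed outside neurons, took the largest share of them in every library. Its share was 34.2, 22.7, 16.2 and 28.6% in ST14high, against 16.2, 27.5, 18.4 and 17.6% in ST14low. The shares overlapped, at 25.4 ± 7.74% in ST14high and 19.9 ± 5.11% in ST14low (mean ± SD, n = 4 each). Pcdhga7 followed with 9.50 to 15.4% and Pcdhgb6 with 6.34 to 12.9% over the 8 libraries. Over the whole row Pcdhgc3 was at 191, 125, 118 and 158 CPM in ST14high, against 155, 138, 146 and 135 CPM in ST14low. That is a log2 fold change of 0.04 (SE 0.16, edgeR adjusted p = 0.950), and -0.10 without ST14high replicate 1.

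**Figure D4:**
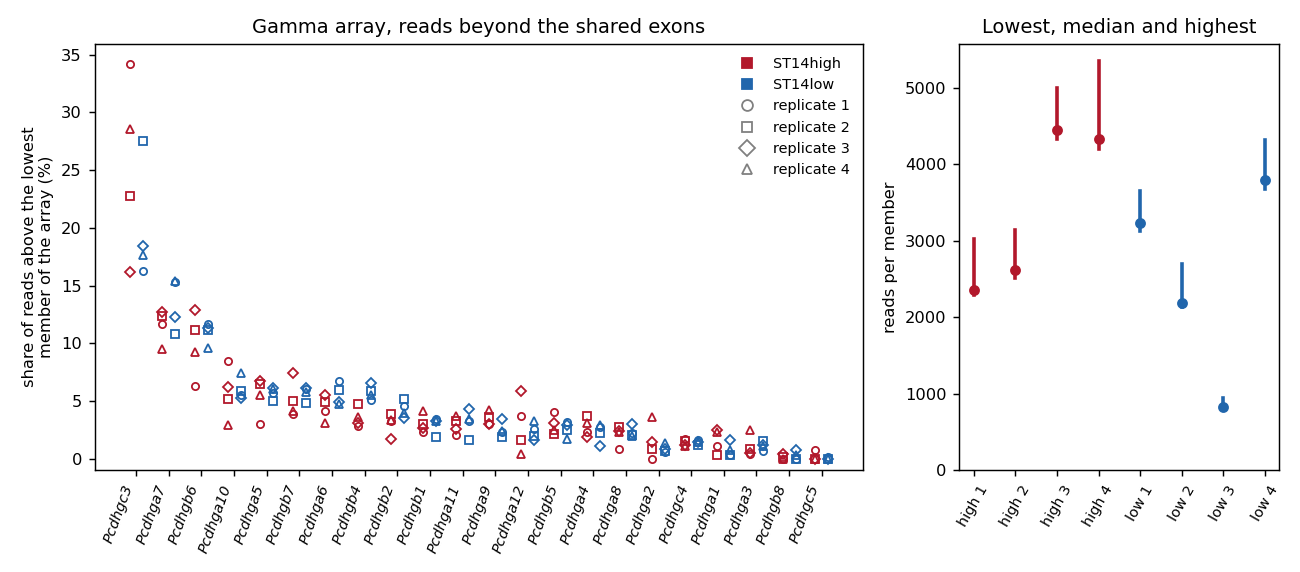
Left, for each gamma protocadherin, its share (vertical axis, %) of all reads above the lowest row of the array in each library (red, ST14high; blue, ST14low; symbols, replicates). Right, the lowest, median (point) and highest reads per gamma row in each library. Pcdhgc3 has the largest share in every library, from 16.2 to 34.2%, and the rows of 1 library lie close together.

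The alpha array was nearly silent. Apart from Pcdha4-g, its 12 rows had 8 to 71 reads each in ST14high libraries and 2 to 27 in ST14low libraries, and in each library most rows had the same number. Pcdhac1 and Pcdhac2, alpha isoforms outside the symbol rule, had the same numbers as most of these rows in ST14low, within 1 read. The row Pcdha4-g, which reaches across into the gamma array, had 485, 382, 909 and 1111 reads in ST14high, against 470, 383, 124 and 731 reads in ST14low. It was at 30.6, 15.2, 21.4 and 32.9 CPM in ST14high, against 19.998, 19.6, 19.1 and 22.8 CPM in ST14low. It overlapped, with a log2 fold change of 0.29 (SE 0.24, edgeR adjusted p = 0.705). The other 12 rows had log2 fold changes from 0.33 to 1.08, which rest on the same few reads and do not count as 12 results.

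The beta genes do not share rows, but they are close copies of each other, and reads that fit several of them could be split between them. Of 22, 15 were tested, 11 with a log2 fold change above 0 and 4 below, with a median of 0.19. Together the beta genes summed to 32.1, 21.4, 20.04 and 25.7 CPM in ST14high, against 19.998, 20.05, 28.7 and 19.98 CPM in ST14low. Pcdhb16 was at 2.71, 1.63, 2.48 and 1.66 CPM in ST14high, against 0.85, 1.23, 1.39 and 1.00 CPM in ST14low. Each ST14high library lay above each ST14low library, and the log2 fold change was 0.93 (SE 0.47, 95% interval -0.12 to 1.99, edgeR adjusted p = 0.563, DESeq2 adjusted p = 0.517). Pcdhb17, the beta gene with the most reads, was at 3.72, 3.85, 3.06 and 7.88 CPM in ST14high, against 4.04, 3.43, 4.62 and 4.96 CPM in ST14low, and overlapped with a log2 fold change of 0.12 (SE 0.39). Others were missing from single libraries. Pcdhb14 was at 3.40, 1.87, 0.50 and 0 CPM in ST14high, against 1.83, 2.97, 3.70 and 2.15 CPM in ST14low. Pcdhb20 was at 3.15, 1.19, 1.16 and 0 CPM in ST14high, against 1.70, 1.64, 2.003 and 2.19 CPM in ST14low.

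The number of beta genes without a read was 1, 3, 6 and 9 of 22 in ST14high, against 0, 1, 2 and 3 in ST14low. Over all 102 members it was 9, 14, 27 and 27 in ST14high, against 12, 14, 22 and 16 in ST14low. The groups overlapped in both counts. ST14high replicates 3 and 4 had the most members at 0 although they were the deepest libraries, and they also had the fewest gene symbols with a read, 14140 and 13873, against 15287 and 15992 in the other ST14high libraries and 14875 to 15354 in ST14low. The count of members at 0 therefore moved with a feature of those libraries as a whole, whose cause was not tested.

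**Figure D5:**
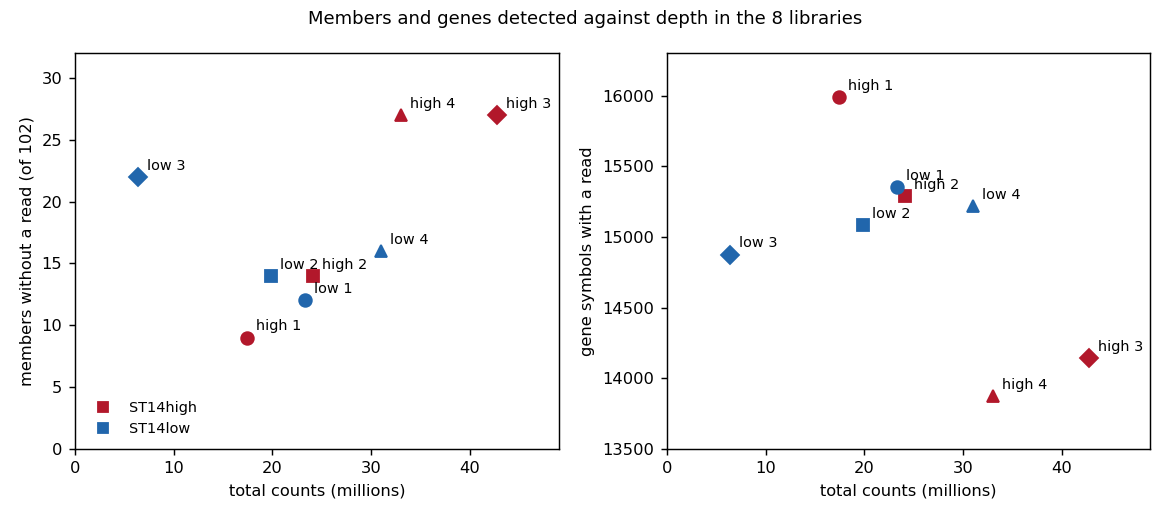
Members without a read (left, of 102) and gene symbols with a read (right, axis not from 0) against total counts for the 8 libraries (red, ST14high; blue, ST14low; symbols, replicates). The 2 deepest libraries, ST14high replicates 3 and 4, have 27 members without a read each and the fewest symbols with a read.

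The 30 members under the filter were 13 cadherins, 3 desmosomal cadherins, 7 non-clustered protocadherins and 7 beta genes, with at most 125 reads over the 8 libraries. No read was found for Cdh7, Cdh10, Cdh19 or Cdh20, which allows up to 0.0707 CPM in the deepest library and 0.462 CPM in the shallowest, by a floor of 3 counts per library. The tip-link cadherins of the inner ear both had most of their reads in ST14high. Cdh23 had 6, 4, 11 and 13 reads in ST14high, against 0, 0, 0 and 3 in ST14low. Its 0.159 to 0.385 CPM in ST14high lay under the floor of 0.462 CPM in ST14low replicate 3, so overlap cannot be judged there. Pcdh15 had 75, 19, 10 and 0 reads in ST14high, against 3, 2, 0 and 0 in ST14low. Some were found mainly in 1 library or a pair of them. Cdh22 had 47 reads in ST14high replicate 4 and 1 in all other libraries together. Pcdh11x had 97 of its 125 reads in ST14high replicate 1. Pcdh20 had 38, 4, 0 and 75 reads in ST14high, against 2, 0, 0 and 0 in ST14low. Cdh17, a cadherin of intestinal epithelium, had 16, 0, 0 and 0 reads in ST14high, against 7, 1, 0 and 7 in ST14low. These counts are too few for the test and are given as counts only.

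The partners that cadherins work with were read from lists of related genes, and 0 of the 47 tested passed edgeR's adjusted test or DESeq2's. Those tests called 0% and 1.72% of all genes, so a count of 0 among 47 does not set the partners apart. Of catenins and other adherens junction proteins, 12 of 13 were tested, 7 above 0 and 5 below, with a median log2 fold change of 0.01. Ctnnb1 (β-catenin), which links cadherin tails to α-catenin, was at 1588 ± 114 CPM in ST14high, against 1757 ± 130 CPM in ST14low (mean ± SD, n = 4 each). Ctnnd1 (p120-catenin), which holds cadherins at the surface, was at 879, 859.8, 887 and 849.8 CPM in ST14high, against 1196, 1163, 1067 and 923 CPM in ST14low. Every ST14high library lay below every ST14low library, as in 2.33% of all genes tested, with a log2 fold change of -0.32 (SE 0.13, edgeR adjusted p = 0.493). Of the 5 nectins, which seed adherens junctions, 3 lay above 0 and 2 below, with a median of 0.02. Pvrl2 (nectin-2) was at 258 ± 55.0 CPM in ST14high, against 269 ± 51.8 CPM in ST14low, and Pvr at 112 ± 29.7 CPM in ST14high, against 110.2 ± 9.70 CPM in ST14low.

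Of the desmosome plaque, 8 of 9 genes were tested, 4 above 0 and 4 below, with a median log2 fold change of 0.02. Dsp (desmoplakin), which ties desmosomes to keratin, was at 1137 ± 68.3 CPM in ST14high, against 1164 ± 192 CPM in ST14low. Ppl (periplakin) was at 531, 428, 474 and 396 CPM in ST14high, against 343, 213, 418 and 331 CPM in ST14low. ST14low replicate 3 lay inside the ST14high range, and the log2 fold change was 0.49 (SE 0.20, edgeR adjusted p = 0.499). Cadherin superfamily genes outside the symbol rule numbered 19, of which 10 were tested, 6 above 0 and 4 below, with a median of 0.07. Fat1, a giant atypical cadherin, was at 575 ± 45.4 CPM in ST14high, against 599 ± 125 CPM in ST14low, and Clstn1 (calsyntenin) at 255 ± 56.8 CPM in ST14high, against 245 ± 30.4 CPM in ST14low. Cdhr5, a cadherin of the microvillus brush border, was at 35.1, 39.4, 37.7 and 31.2 CPM in ST14high, against 51.8, 46.0, 40.1 and 46.1 CPM in ST14low. It lay lower in every ST14high library than in any ST14low library, as did 2.33% of all genes tested. The log2 fold change was -0.36 (SE 0.14, edgeR adjusted p = 0.472). It was chosen, like Pcsk5, after its values were seen.

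Repressors of Cdh1 transcription summed to 101 to 157 CPM in ST14high, against 97.2 to 134 CPM in ST14low. Of 8, 5 were tested, 4 above 0 and 1 below, with a median log2 fold change of 0.56 that was -0.03 without ST14high replicate 1. Tcf3 (E2A) was at 79.8 ± 3.11 CPM in ST14high, against 80.6 ± 1.83 CPM in ST14low, and Zeb1 at 20.8 ± 6.14 CPM in ST14high, against 18.3 ± 6.88 CPM in ST14low. Of 8 genes of cadherin cleavage and turnover, 7 lay above 0 and 1 below, with a median of 0.08. Furin, a protease that cuts cadherin precursors, was at 202 ± 10.7 CPM in ST14high, against 202 ± 17.6 CPM in ST14low, and Adam10, which sheds the outer part of cadherins, at 176 ± 20.2 CPM in ST14high, against 172 ± 35.1 CPM in ST14low. Pcsk5, a relative of furin, was at 9.58, 7.55, 3.28 and 10.1 CPM in ST14high, against 5.02, 3.58, 3.54 and 3.50 CPM in ST14low. ST14high replicate 3 was the lowest of all libraries, and the log2 fold change was 0.96 (SE 0.39, edgeR adjusted p = 0.490).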

How the data were processed

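RNA sequencing libraries of ST14high and ST14low duct cells, 4 each, were grouped by their labels. Per the labels' protocols, sorted cells went into TRIzol and libraries were made with a TruSeq kit. The processing notes of the submitters name Bowtie 1.0.0, CASAVA 1.8.2 and mouse build mm9 without their roles. No counting program, annotation release or strand setting is given in the sources used here, so reads of genes that overlap on opposite strands cannot be told apart. Per the file headers, each row is a RefSeq transcript with a whole-number read count, deposited without normalization, and an RPKM value computed by the authors. Starts and ends are printed as the files give them.

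For each of 20377 symbols in 26005 rows the row with the most reads was kept. Counts were tested in edgeR 4.0.16 (R 4.3.3; quasi-likelihood, TMM, filterByExpr, population as the only term), with Benjamini-Hochberg adjustment over 13749 genes and two-sided p-values. The common biological coefficient of variation was 38.4%. Chi-square over degrees of freedom was 17.7 to 351 for the 28 library pairs, far above counting noise. CPM use TMM-scaled library sizes, intervals are at 95% and floors cover counting error only. DESeq2 1.42.0, limma 3.58.1, other scalings and filters, the longest transcript, the replicate block and leaving out libraries were alternatives, and DESeq2 without ST14high replicate 1 was chosen after seeing the data. The procedure was tested on simulated data.

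The members and all lists were chosen with earlier results of these data known. Named were members outside the arrays with a mean of at least 5 CPM in a population, tested members without overlap between populations, the member with the most reads in each array, Cdh1, Cdh2, Cdh5 and the 2 highest genes of each partner list. Plots were drawn with matplotlib 3.10.9 in Python 3.11.15 from tables handled with pandas 2.3.3.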

Additional observations from a re-analysis of the deposited data

Results flagged for a closer look

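In 4 of 42 groups of 4 libraries, 1 library stood far from the other 3 by Dixon's criterion. Chance gives about 1 in 20 where groups are independent. These groups repeat the same libraries over 21 named members, so that rate gives no expected number here. The share over all genes was not computed. ST14high replicate 1 stood above the rest of its population in 3 of the 4 groups: Cdh13 at 30.4 CPM, Pcdh1 at 122 CPM and Pcdh19 at 18.6 CPM. ST14high replicate 4 stood above the others in the beta protocadherin Pcdhb17, at 7.88 CPM.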

How the results depend on the processing

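The adjusted edgeR test called 0 members and 0 of all genes under the other scalings, filters and transcript choice, with limma's voom, and without each library in turn or ST14high replicates 1 and 2 together. DESeq2 called 234 genes and 2 members, and 283 genes and 1 member (Cdh11) without ST14high replicate 1. With the replicate block, 2 genes passed and 0 members. The replicate numbers were not shown to pair the libraries: same-numbered libraries correlated at 0.05, 0.05, -0.12 and 0.01 in their deviations. Partner genes passed in none of the settings run.

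Fold changes of 25 genes were followed: the 21 named members and the partner genes Ctnnd1, Ppl, Cdhr5 and Pcsk5. The other named partner genes were not followed. Of the 444 values, 405 kept their sign and side of the threshold, 3 passed it under DESeq2 and 36 changed sign. The changes of sign fell on 11 members, and no gene passed in the main test. Leaving out 1 library each gave -0.91 to 2.08 for Cdh13, -0.33 to 0.21 for Cdh2, -0.048 to 0.14 for Cdh3, -0.29 to 0.15 for Dsc2, -0.24 to 0.29 for Dsg1b, -0.23 to 0.066 for Dsg2, -0.41 to 2.57 for Pcdh19, -0.27 to 0.26 for Pcdhb17 and -0.10 to 0.12 for Pcdhgc3. With ST14high replicates 1 and 2 both left out, Cdh13 was at -3.52, Cdh2 at 0.37, Dsc2 at 0.24, Dsg2 at 0.13, Pcdh19 at -0.46 and Pcdhgc3 at -0.060. With limma's voom, Cdh13 was at -1.40, Dsg1b at -0.038, Pcdha4-g at -0.13, Pcdhb17 at -0.17 and Pcdhgc3 at -0.10. With the replicate block, Cdh13 was at -0.59 and Dsg1b at -0.0037. With upper-quartile factors Pcdhgc3 was at -0.0027. With DESeq2 without ST14high replicate 1, Cdh13 was at -0.93, Cdh2 at 0.20, Dsc2 at 0.13, Dsg2 at 0.051, Pcdh1 at -0.00055, Pcdh19 at -0.42 and Pcdhgc3 at -0.12. The cause was not tested. Cdh11 stayed between 2.99 and 3.93 and Pcdh7 between 1.73 and 3.51 over the alternatives in which they were fitted. Depth limits the 30 members under the filter, and ST14low replicate 3, with 6398307 counts, was the shallowest library.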
